A study of Homo sapiens with 4 samples.

Results

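Integrin, laminin and basement membrane ligand genes were followed in H1, a long-established human embryonic stem cell line, during directed differentiation toward blood. The members were taken by a rule on gene symbols, and the list was chosen with earlier results of these data known. They were 26 integrin subunits (18 alpha, 8 beta), 12 laminin chains, and the ligand genes FN1, NID1, NID2, HSPG2, AGRN and VCAM1. Of these 44 genes, 41 were among the 19390 listed in any library. The groups were wild-type cells on day 0 (undifferentiated), day 2 (after 2 days in custom mTeSR1 medium with 40 ng/ml of activin A and 50 ng/ml of BMP4), and days 3 and 4 (the same 2 days, then the same medium with 40 ng/ml of VEGF and 50 ng/ml of bFGF). Each day is 1 library of cells of 1 line, and the labels do not give the medium of day 0. There is thus no replicate check on any difference and no p-value, and every 95% interval covers counting error only.

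Integrins are cell surface receptors made of 1 alpha and 1 beta subunit that bind the extracellular matrix outside and, through talin and kindlin, the actin skeleton inside. Laminins are trimers of an alpha, a beta and a gamma chain that assemble into the basement membrane, where nidogens, perlecan and collagen IV are joined to them, while fibronectin forms fibrils that are bound by integrins through its Arg-Gly-Asp (RGD) site. Human embryonic stem cells are commonly grown on laminin or vitronectin and attach to laminin mainly by the ITGA6 product paired with ITGB1, and in mouse embryos loss of fibronectin or of the alpha subunit encoded by Itga5 disturbs mesoderm and vessels.

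The libraries held 5038060 to 5493266 rounded expected counts, and 1 read stood for 0.182 to 0.196 CPM (counts per 1000000 of the scaled library total). Summed over 10 pluripotency markers, the libraries measured 10908, 4044, 2883 and 2198 CPM on days 0, 2, 3 and 4. Over 9 streak and mesoderm markers the sums were 5.24, 1013, 941 and 855 CPM, with MESP1 and GSC at 0 counts on day 0. Single markers of this list went opposite ways. HAND1 rose from 289 CPM on day 2 to 594 CPM on day 4, and MSX1 from 42.8 to 105 CPM. TBXT, MIXL1, EOMES, MESP1, TBX6, GSC and MSX2 fell between these days, EOMES from 374 to 37.4 CPM and MIXL1 from 57.5 to 0.909 CPM. Over 10 endothelial markers the sums were 250.4, 433, 1103 and 1447 CPM, with EMCN at 0 counts on day 0 and CLDN5 on days 0, 2 and 3. Most of each sum was KDR, at 209, 354, 868 and 942 CPM. CDH5 measured 0.582, 0.196, 20.1 and 83.4 CPM, and VWF was highest on day 3, at 33.6 CPM. Over 8 mesenchymal and smooth muscle markers the sums were 517, 1513, 1909 and 3171 CPM, and over 8 endoderm markers 10.1, 213, 272 and 366 CPM. Within these 2 lists TAGLN, CNN1 and SOX17 were lower on day 4 than on day 2, and the other markers were higher. TAGLN measured 665 CPM on day 2 and 314 CPM on day 4, CNN1 57.9 and 27.6 CPM, and SOX17 90.4 and 55.3 CPM. Blood cell markers were low, with sums of 28.3, 25.7, 22.8 and 46.9 CPM over 10 genes. HBZ was at 0 counts on all 4 days, and HBE1 and GATA1 on days 0, 2 and 3. These sums differed between the same days as many of the adhesion genes described here. Their part in those differences was not tested, and in such bulk RNA fewer cells of a type and less RNA per cell cannot be told apart.

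Of the 44 genes, 40 reached 1 CPM in at least 1 library, 25 reached 10 CPM and 15 reached 100 CPM. ITGB6, ITGAD and LAMB4 were not listed in any library and entered as 0, so their levels are not known. The floor of 3 counts used for listed genes stood for 0.545 to 0.588 CPM. ITGB7 had 1, 2, 1 and 0 counts on days 0, 2, 3 and 4. Together the members took 0.290% of all counts on day 0, 0.828% on day 2, 1.85% on day 3 and 1.76% on day 4. Most of that growth was FN1, and without it the shares were 0.264, 0.474, 0.682 and 0.720%.

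Genes that reached 1 CPM on at least 1 of the days compared were measured, and a difference of 2 or more in log2(CPM + 1), 4-fold on that scale, was called higher or lower. By this rule 5 of 36 measured members were higher on day 2 than on day 0 (4.63% of all 15379 genes tested were) and 1 was lower (1.93% of all genes), FN1, ITGA5, ITGAV, ITGB8 and ITGA9 being higher and ITGA6 lower. For day 3 against day 2, 3 of 38 were higher (1.32% of all genes) and 0 lower (0.406%), the 3 being NID2, ITGA8 and LAMA4, and at a 2-fold rule 6 were higher (5.82%) and 2 lower (3.51%). Between day 4 and day 3 no member was called higher (0.377% of all genes) or lower (0.228%), and at 2-fold 2, ITGA2B and ITGA10, were higher (2.96%) and 2, ITGB8 and LAMA2, lower (4.25%). For day 4 against day 2, 3 of 38 were higher (2.32%) and 1 lower (1.4%), with NID2, ITGA8 and ITGA10 higher and ITGB8 lower. With a pseudocount of 5, or on the deposited FPKM with 1 added, the count of higher members was 1, NID2, in each of these comparisons with day 2. For day 4 against day 0, 8 of 38 were higher (6.27%) and 0 lower (3.44%), the 8 being FN1, NID2, LAMB1, ITGA5, ITGAV, ITGA8, ITGA9 and ITGA10. At 2-fold, 19 were higher (16.1%) and 1 lower (11.9%). Members pass the 1 CPM filter through the day on which they are high, so these counts describe the measured members and not all 44. The median difference in log2(CPM + 1) over measured members was 0.64 for day 2 against day 0, where the median of all genes was -0.00. It was 0.21 for day 4 against day 2, against 0.02 for all genes, and 0.95 for day 4 against day 0, against 0.03. These medians are the same to 2 decimals with genes at 0 counts set to the floor of 3 counts. The comparisons share libraries, so they are not independent of each other.

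**Figure D1:**
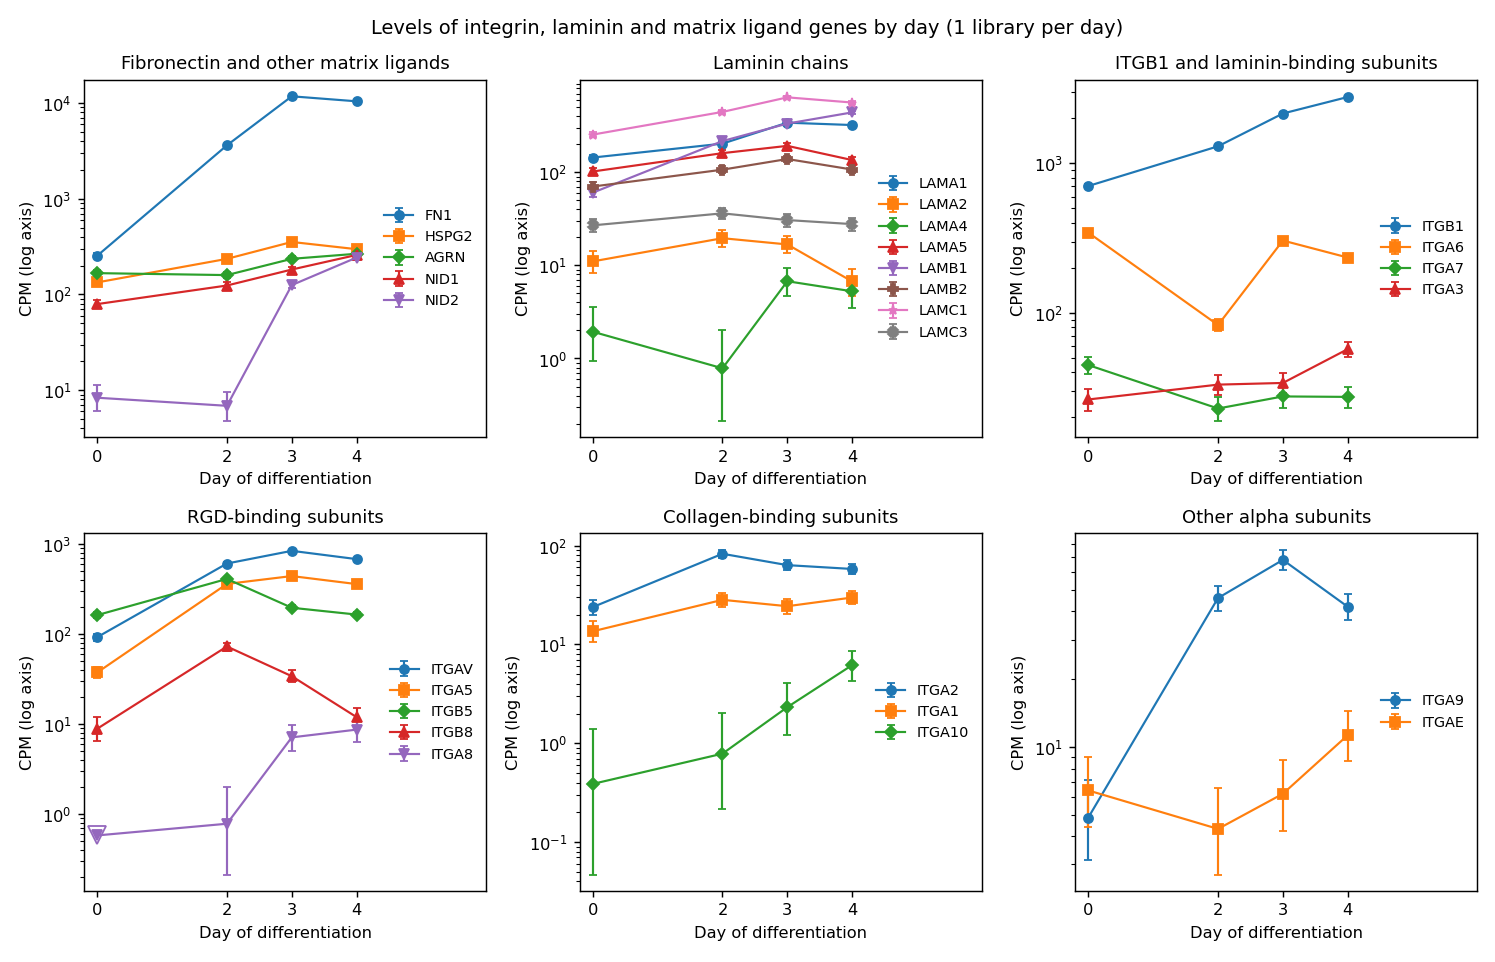
CPM (log axis) on days 0, 2, 3 and 4 of 27 members that reached 10 CPM or differed at least 4-fold between any days compared, grouped by role; error bars are exact Poisson 95% intervals and each day is 1 library. The open triangle marks 0 counts of ITGA8, drawn at the floor of 3 counts. FN1 ran between 254 and 11745 CPM, NID2 stayed under 10 CPM until day 2, and ITGA6 had its lowest value on day 2.

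On the deposited FPKM, the fibronectin gene stood above every other member on days 2, 3 and 4. On day 0 its FPKM was 29.5, against 189 for ITGB1. FN1 (gene ID 2335) measured 254, 3612, 11745 and 10412 CPM on days 0, 2, 3 and 4. Day 0 was lowest and day 3 highest, and the 4 counting intervals did not overlap. FN1 was 14.2-fold higher on day 2 than on day 0 (95% interval 13.5 to 15.1), 3.25-fold higher on day 3 than on day 2 (3.20 to 3.31), and 1.13-fold lower on day 4 than on day 3 (1.12 to 1.14). The whole course came to 41.0-fold (38.9 to 43.4).

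The nidogens, which link laminin to collagen IV, differed in their timing. NID2 (gene ID 22795) measured 8.34, 6.87, 125 and 243 CPM on days 0, 2, 3 and 4. Days 0 and 2 overlapped in their intervals, and days 3 and 4 lay above both. The step fell on the first day of VEGF and bFGF, with NID2 18.2-fold higher on day 3 than on day 2 (13.0 to 26.4) and another 1.94-fold higher on day 4 (1.77 to 2.13). NID1 (gene ID 4811) measured 79.3, 124, 182 and 259 CPM, higher on each later day with no overlap. Its day 4 value was 3.26-fold that of day 0 (2.92 to 3.65). On the deposited length-scaled FPKM the levels of both genes were close on day 4, at 47.7 for NID2 and 43.5 for NID1, whereas on day 2 they stood at 1.32 and 20.4.

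The heparan sulfate proteoglycans perlecan and agrin stayed within 4-fold. HSPG2, the perlecan gene (gene ID 3339), measured 134, 235, 353 and 297 CPM and peaked on day 3. AGRN, the agrin gene (gene ID 375790), measured 167, 159, 236 and 266 CPM. Its day 0 and day 2 intervals overlapped, and its day 4 value was 1.59-fold that of day 0 (1.46 to 1.74). VCAM1 (gene ID 7412), a surface ligand of the ITGA4 and ITGA9 products, was close to the detection limit, with 0, 1, 9 and 4 counts, at most 1.74 CPM.

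To set these values beside the regulatory sequence, the 250 bases before the RefSeq start are shown for 6 members: the 4 with a promoter entry among the 5 that were higher on day 2 (FN1, ITGA5, ITGAV, ITGB8), ITGA6, which was lower, and NID2, which was higher only after day 2. Sequence and positions are those of RefSeq on GRCh38.p14, not of the hg19 build named for the counts. Each runs 5′ to 3′ in the direction of the gene, with matches to the motifs named after the sequences in capitals.
FN1 (chr2:215436069-215436318, minus strand): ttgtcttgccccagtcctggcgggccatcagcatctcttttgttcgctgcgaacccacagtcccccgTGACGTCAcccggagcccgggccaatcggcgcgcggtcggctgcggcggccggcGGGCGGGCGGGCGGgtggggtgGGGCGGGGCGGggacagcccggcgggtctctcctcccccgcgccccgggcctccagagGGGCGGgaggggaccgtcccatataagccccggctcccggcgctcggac
ITGA5 (chr12:54419267-54419516, minus strand): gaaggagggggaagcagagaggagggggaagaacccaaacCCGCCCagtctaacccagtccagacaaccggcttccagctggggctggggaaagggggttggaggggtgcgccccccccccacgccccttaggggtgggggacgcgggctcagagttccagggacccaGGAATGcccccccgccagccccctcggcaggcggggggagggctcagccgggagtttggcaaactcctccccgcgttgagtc
ITGAV (chr2:186589806-186590055, plus strand): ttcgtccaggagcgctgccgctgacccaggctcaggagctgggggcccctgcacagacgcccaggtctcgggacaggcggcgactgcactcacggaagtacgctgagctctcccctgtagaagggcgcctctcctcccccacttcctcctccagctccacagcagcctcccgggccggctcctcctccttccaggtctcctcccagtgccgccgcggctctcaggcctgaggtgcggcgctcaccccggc
ITGB8 (chr7:20330650-20330899, plus strand): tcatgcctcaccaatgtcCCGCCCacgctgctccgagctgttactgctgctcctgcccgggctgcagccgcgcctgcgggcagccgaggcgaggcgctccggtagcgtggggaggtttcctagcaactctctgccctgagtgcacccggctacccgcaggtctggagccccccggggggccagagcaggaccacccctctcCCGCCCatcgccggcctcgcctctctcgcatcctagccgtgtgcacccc
ITGA6 (chr2:172427086-172427335, plus strand): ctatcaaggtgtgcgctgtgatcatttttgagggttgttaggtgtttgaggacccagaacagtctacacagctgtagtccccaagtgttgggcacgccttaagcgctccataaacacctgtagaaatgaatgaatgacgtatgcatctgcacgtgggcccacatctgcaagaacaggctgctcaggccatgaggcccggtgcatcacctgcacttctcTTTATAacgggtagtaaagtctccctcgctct
NID2 (chr14:52069060-52069309, minus strand): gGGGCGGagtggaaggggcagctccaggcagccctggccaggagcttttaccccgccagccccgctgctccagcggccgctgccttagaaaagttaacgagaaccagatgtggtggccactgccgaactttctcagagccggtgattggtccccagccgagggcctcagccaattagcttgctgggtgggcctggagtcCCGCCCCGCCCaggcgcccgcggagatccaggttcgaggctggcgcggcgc

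The motifs, each searched on both strands of the 250 bases, were AGATAA for GATA factors, AGGTGTGA for T-box factors, GGAATG for TEAD factors, TGACGTCA for the cyclic AMP response element (CRE), TATAAA for the TATA box, CCGGAAG for ETS factors and GGGCGG for SP1. Matches to different motifs did not overlap in the member promoters, whereas neighbouring SP1 matches did. The FN1 window held the CRE from base -183 to base -176, counted back from the start, and 6 SP1 matches. FN1 was the only 1 of 31 members with a promoter entry to hold the CRE, which 1.65% of all 35116 promoters held. ITGA5 held a TEAD match at bases -82 to -77 and an SP1 match, ITGB8 held 2 SP1 matches, NID2 held 3, and ITGAV held no match to any of the motifs. TEAD matches were present in 4 of the 31 members (ITGA5, ITGB1, ITGA10 and LAMA2) and in 11.9% of all promoters. ITGA6 held a TATA match at bases -32 to -27, where TATAAA lies on the strand opposite to the gene. Of the 31 members, VCAM1 also held TATA matches, at other positions, and 10.7% of all promoters held this motif. SP1 matches were present in 17 of 31 and in 42.6% of all promoters, ETS in 2 (ITGB5 and LAMA5) and 8.52%, GATA in 1 (LAMA4) and 9.17%, and the T-box motif in 0 and 0.786%. A match is a run of letters, not a measured binding site, and 13 members have no entry in the table.

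Among the laminin chains, LAMA1, LAMB1 and LAMC1, which can assemble with each other into the trimer of the earliest embryonic basement membranes, were each at least 2-fold higher on day 4 than on day 0. LAMB1 (gene ID 3912) measured 60.5, 217, 334 and 441 CPM on days 0, 2, 3 and 4. It was higher on each later day with no overlap, 3.59-fold on day 2 against day 0 (3.16 to 4.08) and 7.29-fold on day 4 against day 0 (6.48 to 8.23). It was the only laminin chain called 4-fold higher over the whole course. LAMB2 (gene ID 3913), the alternative beta chain, measured 70.4, 107, 139 and 107 CPM and had its highest value on day 3.

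The main gamma chain gene LAMC1 (gene ID 3915) measured 255, 446, 639.9 and 563 CPM. Day 3 was highest, and day 4 was 2.21-fold above day 0 (2.07 to 2.36). LAMC3 (gene ID 10319) measured 27.0, 36.3, 30.7 and 27.8 CPM, and all 4 intervals overlapped.

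Of the alpha chains, LAMA1 (gene ID 284217), the alpha chain of that embryonic trimer, measured 144, 204, 342 and 323 CPM. Days 3 and 4 overlapped and lay above days 0 and 2, and the day 4 level was 2.24-fold that of day 0 (2.05 to 2.44). LAMA5 (gene ID 3911), an alpha chain that embryonic stem cells lay down themselves, measured 102, 161, 193 and 136 CPM and peaked on day 3. LAMA2 (gene ID 3908), known from muscle basement membranes, measured 11.1, 19.6, 16.8 and 6.72 CPM, and was 2.50-fold lower on day 4 than on day 3 (1.68 to 3.78).

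LAMA4 (gene ID 3910), the alpha chain known from blood vessels, measured 1.94, 0.785, 6.76 and 5.27 CPM, from 10, 4, 35 and 29 counts. Days 3 and 4 lay above day 2 with no overlap, and the ratio of day 3 to day 2 was 8.62 (3.08 to 33.4). The 4-fold call ended with a pseudocount of 5, at a log2 difference of 1.02, and on the deposited FPKM with 1 added, at 0.80, where the plain FPKM ratio was 9.10. LAMA3 and LAMB3, chains of epithelial laminin, reached at most 2.72 and 2.55 CPM. LAMA3 had 14, 3, 8 and 6 counts and was 4.61-fold lower on day 2 than on day 0 by its CPM ratio (1.29 to 25.0), but by -1.23 on the log2(CPM + 1) scale, short of the threshold. LAMB3 had 6, 13, 5 and 6 counts, with overlapping intervals on all days.

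Over the 12 laminin chains, 11 were measured in the comparison of day 4 with day 0. At 2-fold, 4 of the 11 were higher (16.1% of all genes were), with a median of 0.40 against 0.03 for all genes. For day 2 against day 0 the median was 0.60 against -0.00, and 1 of 11 was at least 2-fold higher (12.9% of all genes) and 1 lower (8.81%).

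**Figure D2:**
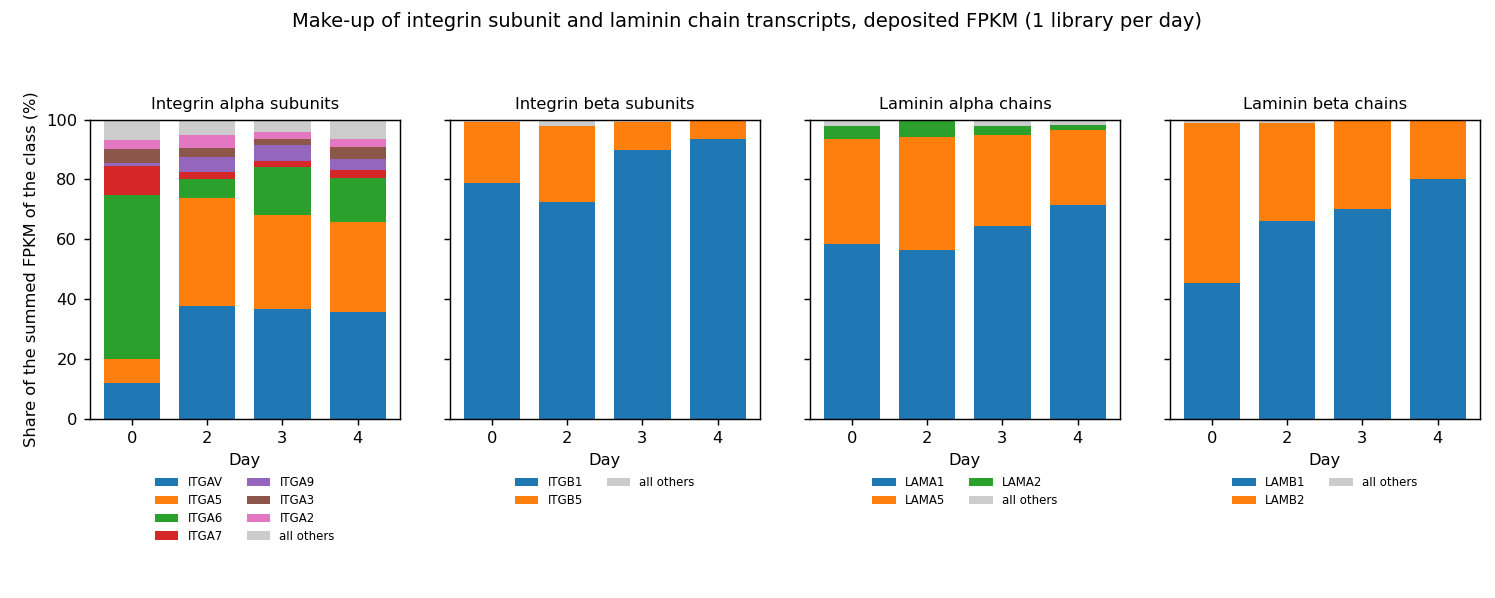
Share (percent) of the summed deposited FPKM of each class taken by each gene on days 0, 2, 3 and 4, for integrin alpha and beta subunits and for laminin alpha and beta chains; genes that never reached 4% are pooled in grey. ITGA6 took 54.6% of the alpha subunit sum on day 0 and 6.20% on day 2, and LAMB1 grew to 80.1% of the beta chain sum on day 4.

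Levels of different genes were compared per length, on the deposited FPKM, for which no counting interval is given. LAMA1 and LAMA5 together made up nearly all laminin alpha chain FPKM. The LAMA1 share was 58.4, 56.4, 64.3 and 71.3% on days 0, 2, 3 and 4, and the LAMA5 share 34.9, 37.6, 30.6 and 25.3%. Among the beta chains the order turned: LAMB1 had 45.4% and LAMB2 53.3% on day 0, but 66.1 and 32.8% on day 2, and 80.1 and 19.6% on day 4.

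The beta subunit shared by most matrix integrins was high throughout and higher on each later day. ITGB1 (gene ID 3688) measured 705, 1299.6, 2153 and 2775 CPM on days 0, 2, 3 and 4. No neighbouring days overlapped, and the whole course came to 3.94-fold (3.80 to 4.08), a log2(CPM + 1) difference of 1.98, just under the threshold of 2. ITGB1 made up 78.8, 72.3, 89.9 and 93.4% of all beta subunit FPKM. Its FPKM was 1.73, 1.48, 1.72 and 2.66 times the summed FPKM of the 12 alpha subunit genes whose products pair with it. This ratio was largest on day 4. The sum counts ITGAV in full, although ITGAV also pairs with other beta subunits.

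The laminin-binding alpha subunit ITGA6 had a dip on day 2. ITGA6 (gene ID 3655) measured 344, 83.0, 305 and 234 CPM on days 0, 2, 3 and 4. No intervals overlapped, day 2 stood apart as lowest, and day 0 was highest. It was 4.15-fold lower on day 2 than on day 0 (3.73 to 4.62) and 3.67-fold higher on day 3 than on day 2 (3.30 to 4.10). Both ratios rest on the single day 2 library. The 4-fold call for day 2 lay at the threshold, with a log2 difference of -2.04 and of -1.99 with a pseudocount of 5.

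ITGA7 (gene ID 3679), a laminin receptor subunit best known from muscle, measured 44.8, 23.0, 27.6 and 27.4 CPM. Its highest value was on day 0, and days 2, 3 and 4 overlapped. It was 1.95-fold lower on day 2 than on day 0 (1.56 to 2.46). ITGA3 (gene ID 3675), which binds the LAMA3 and LAMA5 products, measured 26.4, 33.2, 34.0 and 57.3 CPM. Days 0, 2 and 3 overlapped, and day 4 was 2.17-fold above day 0 (1.77 to 2.67). ITGB4, the partner of ITGA6 in epithelial hemidesmosomes, had 12, 4, 3 and 5 counts, at most 2.33 CPM.

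Of the subunits that bind RGD ligands such as fibronectin and vitronectin, ITGA5, ITGAV and ITGB8 were called 4-fold higher on day 2 than on day 0. ITGA5 (gene ID 3678), the classical fibronectin receptor subunit, measured 37.6, 363, 444 and 361 CPM on days 0, 2, 3 and 4. Day 0 was far below the others, and days 2 and 4 overlapped. It was 9.64-fold higher on day 2 than on day 0 (8.31 to 11.2).

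ITGAV (gene ID 3685), which pairs with several beta subunits, measured 92.9, 611, 846 and 684 CPM. Day 0 was again lowest and day 3 highest, no days overlapped, and it was 6.58-fold higher on day 2 than on day 0 (5.98 to 7.26). ITGA8 (gene ID 8516), which binds nephronectin as well as fibronectin, had 0, 4, 37 and 48 counts, or 0, 0.785, 7.15 and 8.72 CPM. Days 3 and 4 overlapped and lay above days 0 and 2. It was 9.11-fold higher on day 3 than on day 2 (3.27 to 35.2) and at least 15.0-fold higher on day 4 than on day 0, a bound against 3 counts on day 0. The 4-fold calls of ITGA8 ended with a pseudocount of 5 and on the deposited FPKM with 1 added, with log2 differences of 1.46 and 1.88 for day 4 against day 0. The plain FPKM ratio of day 3 to day 2 was 9.08.

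Of the beta partners of ITGAV, ITGB5 and ITGB8 peaked on day 2. ITGB8 (gene ID 3696), whose product with ITGAV activates latent TGF-beta and whose reads were partly shared with other genes, measured 8.92, 73.2, 34.2 and 12.0 CPM. Day 2 was highest and days 0 and 4 overlapped. It was 8.20-fold higher on day 2 than on day 0 (6.03 to 11.4) and 6.10-fold lower on day 4 than on day 2 (4.68 to 8.05). On the deposited FPKM the last ratio was much the same, 5.99-fold lower, but the difference was -1.95 once 1 was added on that smaller scale, short of the threshold. ITGB5 (gene ID 3693), of the vitronectin receptor, measured 163, 412, 197 and 166 CPM, again with overlap of days 0 and 4. It was 2.52-fold higher on day 2 than on day 0 (2.33 to 2.74) and 2.49-fold lower on day 4 than on day 2 (2.30 to 2.69).

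ITGB3 (gene ID 3690), of the platelet and endothelial vitronectin receptors, had 3, 16, 32 and 17 counts, at most 6.18 CPM on day 3. It was 5.39-fold higher on day 2 than on day 0 by its CPM ratio (1.54 to 28.9), short of the threshold at 1.39 in log2(CPM + 1) and past it, at 2.25, with a pseudocount of 0.1. ITGA2B (gene ID 3674), the alpha subunit of platelets and of early blood progenitors, had 10, 8, 9 and 31 counts. Days 0, 2 and 3 overlapped, and day 4, at 5.63 CPM, was 3.24-fold above day 3 (1.51 to 7.74). Of 8 genes in the RGD-binding group, 6 were measured for day 2 against day 0. At 2-fold, 5 of the 6 were higher (12.9% of all genes) and 0 lower (8.81%), with a median of 2.05 against -0.00 for all genes. For day 4 against day 2 the median was -0.01 over 7 measured members, with 2 higher at 2-fold (8.18% of all genes) and 2 lower (7.6%), and for day 4 against day 0 it was 1.37 over 7, and 2.23 or 0.62 with a pseudocount of 0.1 or 5.

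**Figure D3:**
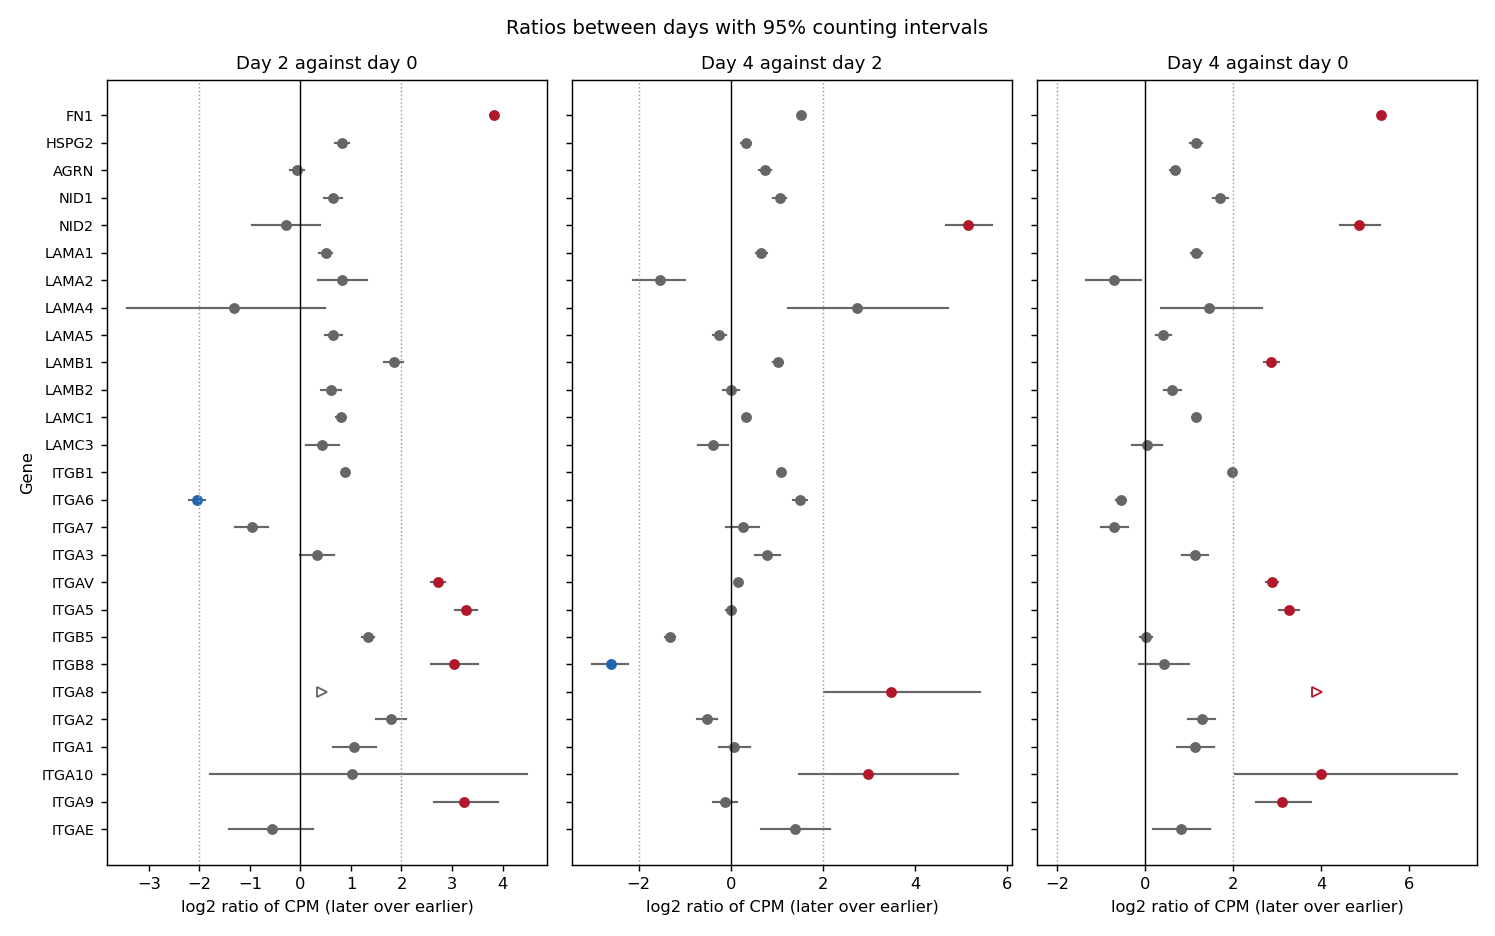
Log2 ratio of CPM, later over earlier day, for the same 27 members in 3 comparisons; lines are exact 95% counting intervals, and open triangles are lower bounds against 3 counts. Red (higher) and blue (lower) points passed the 4-fold rule (dotted lines at -2 and 2; the rule itself uses log2(CPM + 1)). FN1, ITGAV, ITGA5, ITGB8 and ITGA9 are red for day 2 against day 0, where ITGA6 is blue.

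The alpha subunit make-up differed between day 0 and the later days. ITGA6 held 54.6% of the summed alpha subunit FPKM on day 0, 6.20% on day 2, 16.2% on day 3 and 14.6% on day 4. ITGAV held 12.1, 37.7, 36.6 and 35.8%, and ITGA5 7.98, 36.3, 31.4 and 30.2%. ITGAV and ITGA5 thus stood above every other alpha subunit from day 2 on, and ITGA6 came first on day 0. The summed FPKM itself was 112, 229, 328 and 279.

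Collagen receptors were present at lower levels. ITGA2 (gene ID 3673) measured 23.9, 82.6, 63.4 and 58.0 CPM on days 0, 2, 3 and 4. Days 3 and 4 overlapped, day 0 was lowest, and day 2 was 3.46-fold above it (2.83 to 4.27). ITGA1 (gene ID 3672) measured 13.6, 28.2, 24.4 and 29.8 CPM. Day 0 lay below the others, which overlapped, and day 2 was 2.08-fold above it (1.55 to 2.81). ITGA10 (gene ID 8515), known from cartilage, had 2, 4, 12 and 34 counts. Its 6.18 CPM on day 4 was 7.88-fold the value of day 2 (2.81 to 30.6) and 15.9-fold that of day 0 (4.08 to 137). Intervals of days 0, 2 and 3 overlapped. The call against day 2 lay at the threshold, at a log2 difference of 2.01 and of 1.996 with median-of-ratios size factors, and ended with a pseudocount of 5, at 0.95, and on the deposited FPKM with 1 added, at 0.92, where the plain FPKM ratio was 7.87. The call against day 0 also ended there, at 1.05 and 1.01. ITGA11, another collagen receptor subunit, measured 2.91 CPM on day 0 (1.63 to 4.80) and reached 9.08 CPM on day 3 (6.67 to 12.1), with no overlap. Day 3 against day 0 was not among the 5 comparisons, and none of these reached 2-fold on the log2(CPM + 1) scale.

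ITGA9 (gene ID 3680), a receptor subunit for tenascin and VCAM1, measured 4.85, 45.9, 67.8 and 42.0 CPM. Day 0 was lowest, day 3 highest, and days 2 and 4 overlapped. It was 9.47-fold higher on day 2 than on day 0 (6.26 to 14.9). ITGA4 (gene ID 3676), the related subunit by which blood progenitors bind VCAM1 and fibronectin, measured 6.40, 9.22, 6.18 and 9.81 CPM, and all 4 intervals overlapped.

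The leukocyte integrins gave little signal. ITGAE (gene ID 3682), which binds E-cadherin in intraepithelial lymphocytes, measured 6.40, 4.32, 6.18 and 11.3 CPM and was 2.61-fold higher on day 4 than on day 2 (1.58 to 4.46). ITGAX and ITGAL reached at most 3.73 and 2.55 CPM, ITGAM 1.37 CPM and their beta subunit ITGB2 1.45 CPM. ITGB2 had 2, 2, 3 and 8 counts on days 0, 2, 3 and 4, and its day 4 interval, 0.628 to 2.86 CPM, overlapped the others.

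Genes that work with the integrins and laminins were counted from 4 lists, by the same rule and against the same shares of all genes. Of 35 integrin activators and adhesion complex genes, 33 were measured for day 2 against day 0, 3 of them called 4-fold higher (4.63% of all genes) and 0 lower (1.93%), with a median of 0.33. DAB2, an adaptor that takes up integrins by endocytosis, measured 9.11, 103, 166 and 135 CPM. PARVA, the alpha-parvin gene that couples ILK to actin, measured 20.4, 92.4, 125 and 154 CPM, higher on each later day. NEDD9, a scaffold of the CAS family, measured 13.0, 91.4, 80.2 and 36.0 CPM and was highest on day 2. FERMT3, the kindlin of blood cells, had 7, 3, 8 and 75 counts and was 23.2-fold higher on day 4 than on day 2 (7.63 to 115). It alone of this list was called 4-fold for that step, where 2.32% of all genes were called higher and 1.4% lower.

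Of 23 other integrin ligands, 19 were measured for day 2 against day 0, with a median of 0.40. The rule called 5 higher (TNC, POSTN, TGFB1, SPP1 and FBN1) and 1 lower (JAM2), against 4.63% and 1.93% of all genes. Here and in the lists that follow, genes named only in brackets were named for their calls. Tenascin C, TNC, measured 16.3, 1451, 986 and 385 CPM and was 89.1-fold higher on day 2 than on day 0 (71.9 to 112). POSTN, the periostin gene, had the same order of days, at 5.82, 342, 215 and 76.5 CPM. TGFB1, whose latent form is bound by integrins of ITGAV, measured 8.92, 189, 165 and 184 CPM, with day 0 standing apart as lowest. NPNT, the nephronectin gene, measured 0.970, 3.92, 11.4 and 32.0 CPM and was 8.15-fold higher on day 4 than on day 2 (5.12 to 13.7). For day 4 against day 2, the median over 21 of these ligands was 0.36. Of the 21, 4 were called higher (VTN, ICAM2, EDIL3 and NPNT) and 1, POSTN, lower, against 2.32% and 1.4% of all genes.

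Of 21 other basement membrane genes, 18 were measured for day 2 against day 0, with a median of 1.44. The rule called 4 higher (NTN4, FREM1, COL4A6 and NTN1) and 0 lower, against 4.63% and 1.93% of all genes. For day 4 against day 0, 8 of 19 were called higher (6.27% of all genes) and 0 lower (3.44%), with a median of 1.73. Between day 4 and day 2 the list went both ways, with a median of 0.46. At 2-fold, 6 of 18 were higher (8.18% of all genes) and 6 lower (7.6%). At 4-fold, 2 were higher (2.32%) and 1 (NTN1) lower (1.4%). The collagen IV genes COL4A1 and COL4A2, which share a promoter region, measured 143, 491, 1270.5 and 1564 CPM, and 101, 269.9, 758 and 1219 CPM. Both were higher on each later day. FBLN2, the fibulin-2 gene, measured 17.8, 65.9, 259.7 and 429 CPM and likewise was higher on each later day. NTN4, a netrin that binds laminin gamma chains, had 0, 107, 100 and 72 counts and was at least 36.1-fold higher on day 2 than on day 0.

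Of 16 matrix receptors other than integrins, 13 were measured for day 2 against day 0, with a median of 0.84. The rule called 2 higher (4.63% of all genes) and 0 lower (1.93%). CD44, the hyaluronan receptor, measured 12.0, 26.9, 78.7 and 188 CPM and was 7.00-fold higher on day 4 than on day 2 (5.85 to 8.43). BCAM, a receptor for LAMA5 laminins, measured 60.7, 15.1, 31.9 and 30.5 CPM and, like ITGA6, was lowest on day 2. It was 4.02-fold lower on day 2 than on day 0 by its CPM ratio (3.12 to 5.23). It came back less than ITGA6, which measured 305 CPM on day 3 and 344 CPM on day 0. The log2(CPM + 1) difference of BCAM was -1.94, short of the threshold. The collagen receptor DDR2, 1 of the 2 called members, measured 1.16, 10.8, 6.18 and 5.63 CPM and was highest on day 2.

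**Figure D4:**
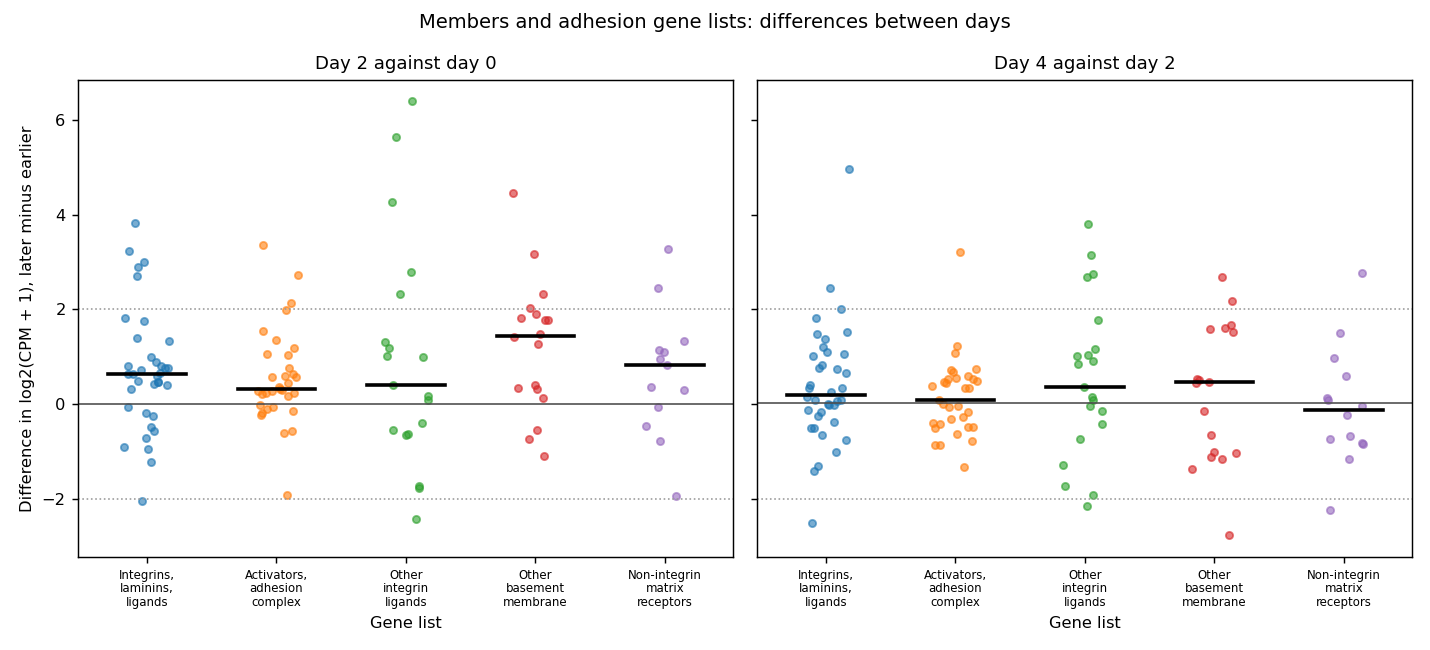
Difference in log2(CPM + 1), later minus earlier day, of each measured gene in the members and in 4 lists of related adhesion genes, for day 2 against day 0 and day 4 against day 2. Black bars are list medians, the thin line the median of all genes, and dotted lines the 4-fold thresholds; points are spread sideways at random for view. The member median was 0.64 for day 2 against day 0 and 0.21 for day 4 against day 2.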

How the data were processed

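RNA of H1 cells was taken with Trizol and made into libraries with an Illumina TruSeq RNA kit, per the labels' protocols. The submitters' processing notes name BWA, Bowtie, RSEM and hg19, without versions or roles, and the series' design text also names TopHat and Cufflinks. Each deposited file gives, per the file headers, an expected count, a transcript length and FPKM for each Entrez gene ID. Of the deposited expected counts, 69.4 to 70.1% per library were whole (tolerance 0). All were rounded, and genes that a file does not list entered as 0. The deposited FPKM served to compare levels between genes and as an alternative. The deposited length entered no result.

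Gene names were taken from RefSeq (assembly GRCh38.p14), which matched 19273 of 19390 IDs and all 44 members. CPM were scaled by TMM factors (0.981 to 1.02), with edgeR 4.0.16 under R 4.3.3, and median-of-ratios factors came from DESeq2 1.42.0. Python 3.11.15 with scipy 1.17.1, pandas 2.3.3, numpy 2.4.6 and, for figures, matplotlib 3.10.9 did the rest. With 1 library per day, a rule of size replaced tests: a minimum of 1 CPM on either day and a difference of at least 2 (4-fold) in log2(CPM + 1), with a 2-fold rule beside it. It was tested on simulated counts. Folds are CPM ratios with exact conditional binomial 95% intervals, CPM have exact Poisson intervals, and a fold against 0 counts is a bound at 3 counts in that library. PCR reads are not independent molecules, so these intervals cover counting error only.

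Members that reached 1 CPM are named, with values on each day for those that reached 10 CPM or a 4-fold difference, and up to 4 genes per related list by size of difference; values given for lower members and genes named in brackets go beyond that rule, and 2 genes that it takes are not reported here. The members and lists were chosen with earlier results of these data known. Expected counts were not whole for 7 of 41 counted members (among them ITGA2, ITGA11, ITGAL, ITGAX, ITGB8 and, in 1 library, LAMA4), so part of their reads was shared with other genes and their levels are less certain. Whether counting used strand is not given in the sources used here. Of 11 antisense or divergent genes named for a member, ITGB2-AS1 alone had counts, 1 each on days 0 and 4. Alternatives were pseudocounts of 0.1 and 5, median-of-ratios factors, library totals, no minimum, a minimum of 5 CPM and the deposited FPKM.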

Additional observations from a re-analysis of the deposited data

How the results depend on the processing

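Of 7 alternatives, 6 changed 1 choice, while the deposited FPKM also dropped the TMM factors and added 1 on a smaller scale. No paired analysis was possible because each day has 1 library, and none could be left out. Of 1458 values recomputed for counts, list medians and single members, 63 moved by more than a set tolerance, and no called value of a member changed sign. For single members the tolerance came from the counting interval of the ratio, or was 1 in log2 for a fold against 0 counts. For list medians it came from the median width of the intervals of the genes in the list, and for counts it was 1.5 times. Median-of-ratios factors, library totals, no minimum and a minimum of 5 CPM moved no count of called members by over 1.5 times. With a pseudocount of 5, members called higher numbered 1 for day 3 against day 2 and 1 for day 4 against day 2 (3 in each as reported), and members lower on day 2 than on day 0 numbered 0 (1 as reported, ITGA6). The deposited FPKM gave 1 and 1 for the same steps upward, and 0 members lower on day 4 than on day 2 (1 as reported, ITGB8). A pseudocount of 0.1 gave 2 members lower for day 2 against day 0, with LAMA3 added, and 2 for day 4 against day 2, with ITGAM added, and also called ITGB3, VCAM1 and LAMA4 higher in 1 or 2 comparisons in which they were not called as reported. The median of the RGD-binding subunits for day 2 against day 0 (2.05 as reported) was 2.48 with a pseudocount of 0.1, 1.39 without a minimum and 2.80 with a minimum of 5 CPM. For day 4 against day 0 (1.37 as reported) it was 2.23 with a pseudocount of 0.1, 0.62 with 5 and 2.02 with a minimum of 5 CPM. Other basement membrane genes had medians of 1.77 for day 2 against day 0 with a minimum of 5 CPM, 0.15 for day 4 against day 2 without a minimum (0.46 with it) and 1.49 for day 4 against day 0 with a pseudocount of 5 (1.73 as reported). Other integrin ligands had a median of 0.14 for day 4 against day 2 without a minimum (0.36 with it). A minimum changes which genes enter a median, and a larger pseudocount shrinks differences of low genes by construction; ITGA8, ITGA10 and LAMA4 stayed under 10 CPM on all days, and their calls rest on 2 to 48 counts, or 0 on day 0 for ITGA8.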
